A study of Mus musculus with 2 samples.

Results

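Fibroblast growth factors (FGFs) and their receptors were examined in fibroblastic reticular cells (FRCs) grown from mouse lymph nodes. The set holds 10 genes chosen by symbol, 7 ligands (Fgf1, Fgf2, Fgf7, Fgf9, Fgf10, Fgf18 and Fgf21) and 3 receptors (Fgfr1, Fgfr2 and Fgfr3), out of 19751 genes with a probe set of their own. All 10 were measured, each by 1 probe set. FRCs are the fibroblasts that form the conduits and scaffold of lymphoid organs. There was 1 group of 2 arrays, labelled replicate 1 and replicate 2, of C57BL6/J mice that were 4 to 6 weeks old and untreated. The labels call the cells purified and describe culture of lymph node stroma for 7 to 10 days in a medium with 10% fetal calf serum, and do not say how the cells were purified. There was no second condition to compare with, and whether the replicates came from different animals or cultures is not given. The spread between them may therefore be partly technical, and no significance test was possible.

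FGFs are secreted proteins that bind receptor tyrosine kinases together with heparan sulfate, a sugar chain of the cell surface and matrix. The activated receptor recruits the adaptor FRS2, which leads through RAS to the kinase ERK, and ERK activity induces ETS factors and inhibitors that feed back on the pathway. FGF7 and FGF10 are made by mesenchymal cells and act mainly on the splice form of FGFR2 found in epithelia, whereas FGF2 is a classical mitogen of cultured fibroblasts, and FGF21 is a hormone that needs the coreceptor beta-klotho.

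Levels are log2 intensities made from the deposited values. Differences were taken only between the 2 arrays for the same gene, since probes of different genes bind with different strength. The background limits do set a gene against probe sets of other genes, so this caution applies to the counts above them. A gene counted as above background when it exceeded, on both arrays, the 95th percentile of 1035 olfactory receptor probe sets, which was 7.15 on replicate 1 and 7.17 on replicate 2. A stricter limit, taken from 36 probe sets of genes restricted to other tissues, was 8.08 and 8.18. Of the 36 tissue-restricted genes, 16 exceeded the olfactory receptor limit themselves, so a gene between the limits is not shown to be expressed. On both arrays 2 of the 36 exceeded the stricter limit too. Differences are replicate 1 minus replicate 2.

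Of the 10 genes, Fgf2, Fgf7, Fgf18, Fgfr1 and Fgfr2 lay above both limits on both arrays. Fgf1 and Fgfr3 lay between the limits, Fgf10 passed the olfactory receptor limit on replicate 1 only, and Fgf9 and Fgf21 passed neither limit on either array. The 7 genes above the olfactory receptor limit compare with 67.3% of all named genes, and the 5 above the stricter limit with 49.9%, so the share of these 10 genes above background was near that of genes in general. In bulk RNA, fewer cells of a type and less RNA per cell cannot be told apart.

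**Figure D1:**
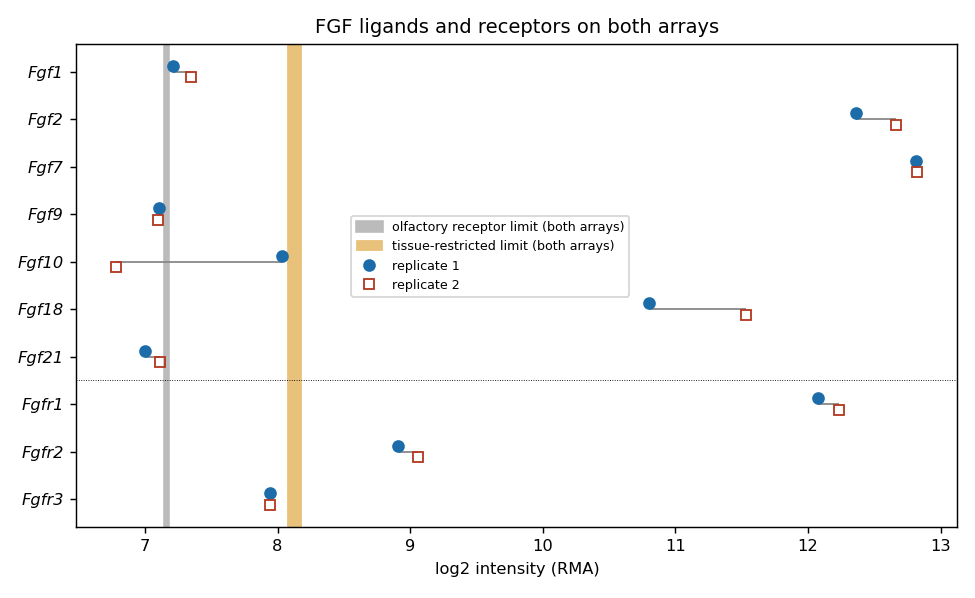
Log2 intensity of the 10 genes on replicate 1 (filled circles) and replicate 2 (open squares), ligands above the dotted line and receptors below it. The vertical bands run from the limit of one array to that of the other, and Fgf2, Fgf7, Fgf18, Fgfr1 and Fgfr2 lie to the right of both bands. Positions of different genes are not comparable as amounts of RNA.

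To show members with contrasting values beside their upstream sequence, the 250 bases before the RefSeq start site are printed for Fgf7 (even on both arrays), Fgf18 (uneven, above both limits) and Fgf21 (below both limits). Sequences are from RefSeq, build GRCm38.p6, 5′ to 3′ on the gene's strand, and positions count back from -1, the base before the start site. Of the 10 genes, 8 matched the promoter table, all but Fgf1 and Fgfr1, with 9 stretches in all because Fgfr3 has 2 start sites there. The Fgf7 stretch is chr2:126034408-126034657 (plus strand), the Fgf18 stretch chr11:33147401-33147650 (minus strand) and the Fgf21 stretch chr7:45615491-45615740 (minus strand). Capitals mark CG dinucleotides in Fgf7 and Fgf18, and motif matches in Fgf21, where a match on the opposite strand reads as its reverse complement.
Fgf7: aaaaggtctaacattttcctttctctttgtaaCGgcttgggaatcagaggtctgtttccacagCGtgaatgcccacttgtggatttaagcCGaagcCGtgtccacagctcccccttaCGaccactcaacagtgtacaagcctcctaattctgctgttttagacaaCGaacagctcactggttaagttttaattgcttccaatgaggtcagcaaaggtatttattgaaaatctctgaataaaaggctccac
Fgf18: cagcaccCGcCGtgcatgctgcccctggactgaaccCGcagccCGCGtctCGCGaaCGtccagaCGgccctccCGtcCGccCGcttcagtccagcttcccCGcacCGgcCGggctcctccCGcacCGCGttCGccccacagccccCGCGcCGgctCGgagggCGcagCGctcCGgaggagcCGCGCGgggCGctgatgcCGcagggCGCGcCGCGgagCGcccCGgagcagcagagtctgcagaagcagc
Fgf21: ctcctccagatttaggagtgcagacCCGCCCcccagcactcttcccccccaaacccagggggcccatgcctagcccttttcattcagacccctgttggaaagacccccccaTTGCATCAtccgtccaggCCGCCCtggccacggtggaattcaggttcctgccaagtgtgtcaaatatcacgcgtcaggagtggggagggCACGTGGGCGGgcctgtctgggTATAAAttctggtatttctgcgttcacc

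The Fgf7 stretch had 43.6% G and C and 6 CG dinucleotides, the median number of the 32851 promoters of the table. The Fgf18 stretch had 77.2% G and C and 37 CG dinucleotides, a number reached by 2.20% of promoters. The Fgfr2 stretch held 2 CG dinucleotides and that of Fgf10 held 8. Motifs were searched on both strands in the same 250 bases. The TATA box TATAAA occurred in Fgf21 alone among the 8 genes, from -28 to -23, and in 12.4% of all promoters. Fgf21, a known target of the stress factor ATF4 in liver, was also the 1 gene of the 8 with the amino acid response motif TGATGCAA, from -139 to -132 on the opposite strand, which 0.791% of promoters hold. An E-box, CACGTG, lay from -50 to -45 in Fgf21, against 6.02% of promoters, and it shares 1 base with a GC box, GGGCGG, from -45 to -40. GC boxes also occurred in Fgf2, Fgf10, Fgf18 and Fgfr3 (over its 2 stretches) and in 32.7% of promoters. The AP-1 motif TGACTCA was in none of the 9 stretches and in 4.46% of promoters. Matches describe letters in these windows and were not tested against the array values.

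Among the ligands, Fgf7, the keratinocyte growth factor that stromal cells supply to epithelia, was nearly identical on the arrays. Its intensity was 7215 on replicate 1 and 7256 on replicate 2, or 12.82 ± 0.01 on the log2 scale (SD, n = 2). It exceeded the stricter limit by 4.74 on replicate 1 and 4.65 on replicate 2 (log2). The difference was -0.01, and 94.1% of the 471 genes within 0.5 of its mean level differed by at least as much.

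Fgf2, a heparin-binding ligand that leaves cells without a signal peptide, had an intensity of 5271 on replicate 1 and 6500 on replicate 2. Its log2 level was 12.52 ± 0.21 (SD, n = 2), and both arrays lay more than 4 log2 units above the stricter limit. The difference of -0.30, or 1.23-fold, was exceeded or met by 9.46% of the 666 genes of like level.

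Fgf18, a ligand known from bone and lung development, was above both limits on each array but uneven between them. Its intensity was 1787 on replicate 1 and 2970 on replicate 2, and its log2 level was 11.17 ± 0.52 (SD, n = 2). Replicate 2 was the higher array by 1.66-fold, a difference of -0.73. Of 1959 genes within 0.5 of its level, 36 (1.84%) differed by at least as much.

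Fgf10, which drives epithelial branching in the lung, was the gene of the set with the largest replicate difference. Its intensity was 263 on replicate 1 and 110 on replicate 2, or 8.04 and 6.78 on the log2 scale. Relative to the olfactory receptor limit these were 0.89 on replicate 1 and -0.39 on replicate 2. Since replicate 2 was below background, the measured difference of 1.25 gives no fold, and with replicate 2 set to its limit Fgf10 was at least 1.82-fold higher on replicate 1 (0.86 on the log2 scale). Of 3690 genes of like level, 31 (0.840%) differed by at least as much when values below the limit were set to it. Genes below the limit on both arrays could not differ so much after that step, so this percentage is partly set by it. Both arrays lay below the stricter limit, replicate 1 by a margin of -0.04, so on that limit no fold can be given.

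The remaining ligands stayed at background or close to it. Fgf1, a ligand that binds every FGF receptor, had 7.21 on replicate 1 and 7.35 on replicate 2. These values exceeded the olfactory receptor limit by 0.06 and 0.17 and lay below the stricter limit by more than 0.8 log2 units. The arrays differed by -0.13, as 30.9% of 3692 genes of like level did or exceeded. Fgf9, known as a signal between epithelium or mesothelium and mesenchyme, had 7.11 and 7.10 and missed the lower limit by less than 0.1 on both arrays. Fgf21, a metabolic hormone made mainly by liver, had 7.00 on replicate 1 and 7.11 on replicate 2, also below the limit on both.

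Among the receptors, Fgfr1, the main FGF receptor of mesenchymal cells, had an intensity of 4318 on replicate 1 and 4809 on replicate 2. The log2 level was 12.15 ± 0.11 (SD, n = 2), and the difference of -0.16 was met or exceeded by 29.8% of 945 genes of like level. Fgfr2, the receptor whose epithelial splice form binds FGF7 and FGF10, had 480 on replicate 1 and 535 on replicate 2, a log2 level of 8.99 ± 0.11 (SD, n = 2). It exceeded the stricter limit by 0.83 and 0.88, and 43.8% of 2681 genes of like level differed at least as much as its -0.16. Fgfr3, a receptor best known for restraining bone growth, gave 246 on both arrays, a log2 level of 7.95 ± 0.00 (SD, n = 2), above the first limit by 0.79 and 0.77 and below the stricter one. Each receptor has 1 value per array, so these data do not separate the splice forms on which ligand choice depends.

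The mean of the arrays exceeded 7.16, the mean of the olfactory receptor limits, for 8 of the 10 genes and for 13577 genes in all. Of these 8, the arrays differed 1.5-fold or more for 2, Fgf10 (higher on replicate 1) and Fgf18 (higher on replicate 2). Among all 13577 genes, 4.77% differed as much, 1.91% being higher on replicate 1 and 2.87% higher on replicate 2. Fgf10 was among the 8 through replicate 1 only (8.04), since replicate 2 (6.78) was below background. Of Fgf10 and Fgf18, only Fgf18 was thus above background on both arrays. On the measured values the arrays differed 2-fold or more for 1 of the 8, Fgf10, and for 1.41% of all genes. With values below the limit set to it, 0 of the 8 and 1.33% of all genes reached 2-fold. With so few genes these counts are descriptions only. Of the 8, 7 had the higher value on replicate 2, as did 51.2% of all 13577 genes, and the count was 5 after removal of a loess trend, which turned the near-zero differences of Fgf7 and Fgfr3. The median difference was -0.14 over the 8 and -0.0046 over all 13577 genes. For Fgf7 and Fgfr3 the difference was smaller than 0.01, below the median absolute difference of all genes, 0.11, and the median absolute difference of the 8 was 0.16.

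**Figure D2:**
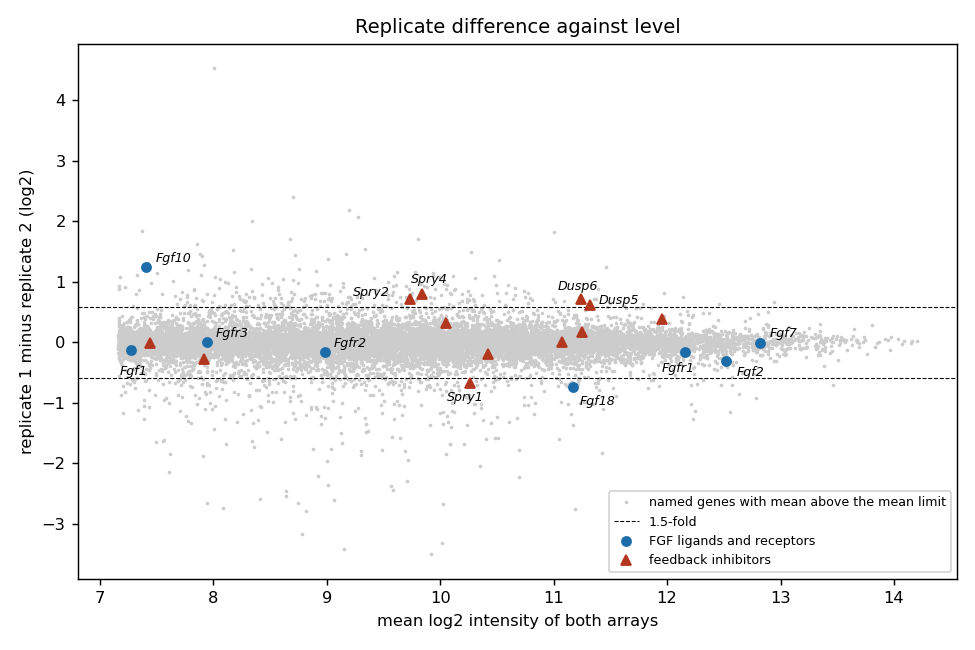
Difference between the arrays (replicate 1 minus replicate 2, log2) against mean log2 intensity. Grey points are the 13577 genes above the mean limit, circles the 8 FGF ligands and receptors among them, triangles the 12 feedback inhibitors, and dashed lines mark 1.5-fold. Fgf10 lies above the upper line and Fgf18 below the lower line, and Spry2, Spry4, Dusp5 and Dusp6 lie above and Spry1 below.

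The other genes of the family were mostly near background. Of 11 further secreted ligands, 8 passed the olfactory receptor limit and 2 the stricter one, Fgf8 (8.64 ± 0.04) and Fgf22 (8.41 ± 0.00; SD, n = 2). The highest tissue-restricted gene had a mean of 8.45, above Fgf22, so a value just over the stricter limit does not show expression. Together with the 7 ligands of the set, 12 of 18 passed the first limit and 5 the stricter one. Of all named genes, 67.3% and 49.9% did so. Of the 4 intracellular FGF homologous factors, which bind sodium channels and are not secreted, none exceeded the first limit on replicate 1, and Fgf11 alone did on replicate 2. Fgfr4 lay between the limits (7.87 ± 0.01), and the receptor without a kinase domain, Fgfrl1, lay above both, with 1125 on replicate 1 and 1388 on replicate 2 (10.29 ± 0.21; SD, n = 2). The klotho coreceptors of endocrine FGFs, Kl (6.38 ± 0.14) and Klb (6.17 ± 0.08), were below the limit on both arrays, as Fgf21 was.

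Heparan sulfate genes were above background in most cases, where 49.9% of all named genes passed the stricter limit on both arrays. Of 12 core proteins and FGF carriers, 10 passed both limits, and the exceptions were Gpc3, a glypican, and Fgfbp1, a carrier that releases stored FGF. Of 12 measured genes that build or edit heparan sulfate, 10 passed both limits, and the exceptions were the sulfotransferases Hs3st1 and Hs3st3a1, of which Hs3st3a1 passed the first limit on 1 array. A 1.5-fold difference occurred in 2 core proteins, both higher on replicate 2, against 2.87% of all genes above the mean limit. The syndecan Sdc1 had 2259 on replicate 1 and 3817 on replicate 2 (1.69-fold), and the glypican Gpc6 had 1250 on replicate 1 and 2339 on replicate 2 (1.87-fold).

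Genes that carry the signal inside the cell were above both limits throughout: 10 of 10 measured adaptors and effectors, such as Ptpn11 and Grb2, and 5 of 5 measured genes of the RAS to ERK cascade. The first limit was passed by 67.3% of all named genes and the stricter one by 49.9%. None of these 15 signalling genes differed 1.5-fold between the arrays, against 4.77% of all genes above the mean limit. Frs2 and Ndst1 were not analysed here. Of 6 membrane proteins that bind FGF receptors, Flrt2, Cdh2 and Ncam1 passed both limits, and Flrt1, Flrt3 and L1cam passed the first. Of the splicing regulators, Esrp1, which promotes the epithelial receptor forms, was below the limit (5.95 ± 0.06), its relative Esrp2 was above both (8.91 ± 0.22), and Ptbp1 and Rbfox2 were above both.

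**Figure D3:**
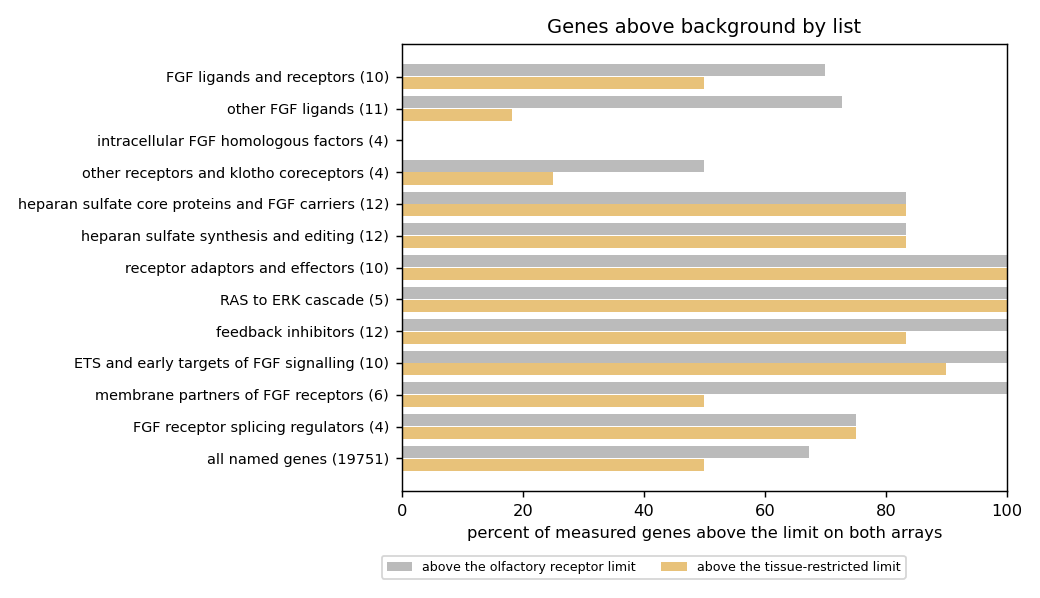
Percent of the measured genes of each list that lay above the olfactory receptor limit (grey) and the tissue-restricted limit (yellow) on both arrays, with the number measured in brackets. FGF ligands and receptors (7 and 5 of 10 genes) stand near all named genes (67.3% and 49.9%), and the bars of adaptors and the RAS to ERK cascade are full for both limits.

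Feedback inhibitors of the pathway included several genes that differed between the arrays. All 12 passed the first limit and 10 the stricter one, the exceptions being Spry3 and Il17rd. Among all named genes the shares were 67.3% and 49.9%. The probe sets of Il17rd disagreed, 1 with 8.50 on replicate 1 and 8.69 on replicate 2, above the stricter limit, and 1 with 7.07 and 7.42, below the first limit on replicate 1. Of the 12, 5 differed at least 1.5-fold, against 4.77% of all genes above the mean limit, 4 of them higher on replicate 1 and 1 higher on replicate 2. None differed 2-fold. Their median difference was 0.24, against -0.0046 over all genes.

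The ERK phosphatase gene Dusp6 had an intensity of 3106 on replicate 1 and 1880 on replicate 2 (1.65-fold). Spry4, a Sprouty inhibitor of receptor tyrosine kinase signalling, had 1209 on replicate 1 and 695 on replicate 2 (1.74-fold). Spry2 had 1087 on replicate 1 and 665 on replicate 2 (1.63-fold). These 3 genes were thus all higher on replicate 1. Dusp5, a nuclear ERK phosphatase, had 3162 on replicate 1 and 2066 on replicate 2 (1.53-fold). Spry1 went the other way, with 974 on replicate 1 and 1548 on replicate 2 (1.59-fold higher on replicate 2). The direction thus differed among Sprouty genes.

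Among 10 ETS factors and early targets, all passed the first limit and all but Etv1 the stricter one. The shares of all named genes were 67.3% and 49.9%. Etv1 has 2 probe sets, and 1 of them passed the stricter limit too, with 8.38 on replicate 1 and 8.45 on replicate 2. Etv4, an ETS factor induced by FGF signalling, had 745 on replicate 1 and 411 on replicate 2, a 1.81-fold difference. It was the only gene of the 10 to differ 1.5-fold, against 4.77% of all genes above the mean limit. Its relative Etv5, measured by 2 probe sets, had a difference of -0.13, with -0.11 and -0.16 for the single probe sets. Of 2860 genes of like level, 48.8% differed by at least as much as Etv5. The median difference of the list was 0.13.

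Cell cycle genes differed in the same direction as Fgf10, Dusp5, Dusp6, Spry2, Spry4 and Etv4, and opposite to Fgf18, Spry1, Sdc1 and Gpc6. Of 11 measured, 11 were higher on replicate 1, against 6629 of the 13577 genes above the mean limit. In that direction 7 of the 11 differed at least 1.5-fold, against 1.91% of the 13577. The median difference of the 11 was 0.79, and the largest was that of Mki67, with 10.52 on replicate 1 and 9.45 on replicate 2. Ccnd1, counted among the early targets instead, had a difference of -0.10. The part of the cell cycle in the replicate differences was not tested.

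**Figure D4:**
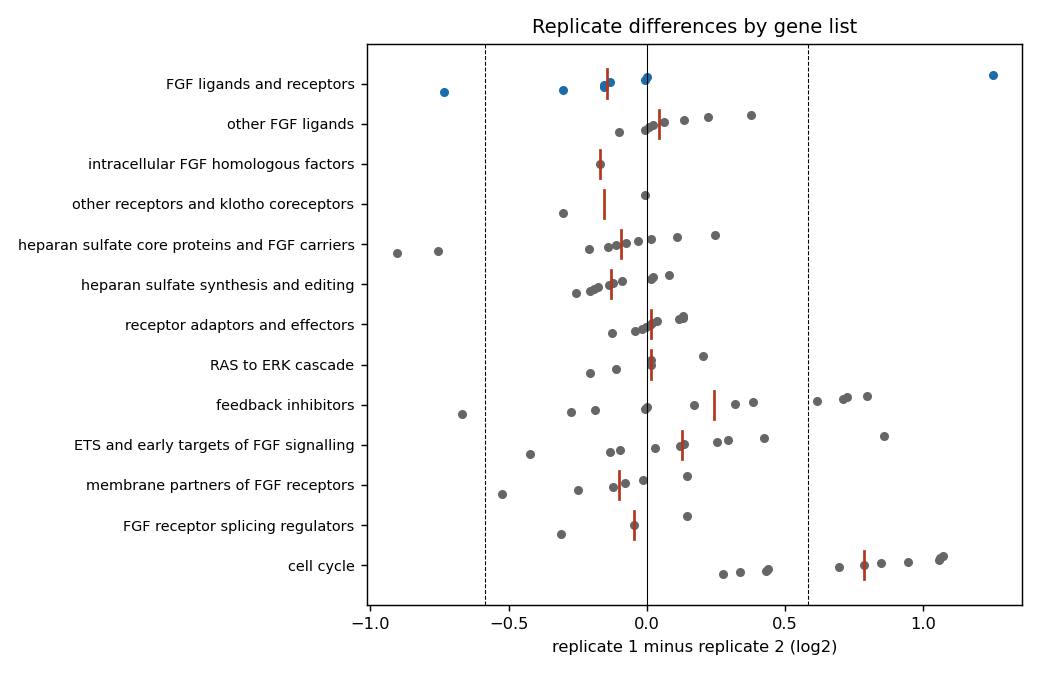
Replicate 1 minus replicate 2 (log2) for each gene above the mean limit, by list, with the list median as a vertical bar and dashed lines at 1.5-fold. Feedback inhibitors have a median of 0.24 with Spry1 on the left, FGF ligands and receptors have a median of -0.14 with Fgf10 alone on the far right, and all 11 cell cycle genes lie right of 0.

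The labelled cell type was checked against markers. For comparison, 67.3% of all named genes passed the first limit and 49.9% the stricter one on both arrays. All 10 FRC identity genes, among them Pdpn, Pdgfra and Pdgfrb, passed the first limit and 8 the stricter one, Ccl19 and Il7 being the exceptions. Ccl19 is an average of 4 unlike probe sets, of which 2 lay above the stricter limit on both arrays (9.33 and 10.11 on replicate 1, 9.19 and 10.24 on replicate 2), and Il7 passed that limit on replicate 1 (8.66) but not on replicate 2 (7.74). Of 8 endothelial markers 4 lay above the first limit, and 0 above the stricter one, on both arrays, although Flt4 exceeded the stricter limit on replicate 1 (8.41) and Emcn on replicate 2 (8.40). Flt4 was 1.53-fold higher on replicate 1 and Emcn 1.70-fold higher on replicate 2, and Tek differed 1.5-fold only through a replicate 1 value below background (6.93, against 7.68 on replicate 2). Of 9 measured leukocyte markers 4 passed the first limit and 0 the stricter one, with Ptprc (6.44) below the limit on both arrays. Of 8 epithelial markers 5 passed the first limit and 2 the stricter one, Krt8 and Krt19. Krt19 had 10.84 on replicate 1 and 10.82 on replicate 2, and Krt8 had 8.44 and 8.50. Epcam (6.65) was below the first limit on both arrays.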

How the data were processed

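RNA of both arrays was hybridised after biotin labelling of single-stranded cDNA, per the labels' protocols. Per the submitters' processing notes the authors ran RMA, and the deposited values are linear intensities, 1 for each probe set on each array. As generally run, RMA subtracts background, equalises the distributions of the arrays by quantiles and compresses differences at low signal. The RMA version, the arrays normalised together and the genome build were not given in the sources used here. Median intensity was 286.0 on replicate 1 and 285.7 on replicate 2. Precision is limited by having 2 arrays.

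The platform annotation gave a single gene for 21354 of 24679 probe sets, several for 1275 and none for 2050, and the single-gene kind alone was named. Symbols of all 10 genes matched the RefSeq table of GRCm38.p6 by gene identifier. Intensities were turned to log2, probe sets of a gene averaged, and limits taken as percentiles (Python 3.11.15, pandas 2.3.3). Counting was tested on simulated replicate differences of 13577 genes, where the 1.5-fold threshold called 100 of 100 genes planted at 2.5-fold and 1 of 100 planted at 1.2-fold. The simulated noise was normal, with the spread of the olfactory receptor probe sets, and a 2.5-fold difference was thus almost sure to pass. The simulation checks the counting only and does not tell how the threshold performs on the real arrays. With 1 group no test was run.

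The genes and lists were chosen with earlier results of these data known. Named are all 10 genes, a fixed set of pathway genes, list members on the smaller side of the stricter limit where 5 or fewer, and those differing 1.5-fold. Genes named outside this rule (Ptpn11, Grb2, Ptbp1, Rbfox2, Fgf11, Mki67, Ccnd1 and the marker examples) were chosen after their values were seen. No gene was named for likeness of pattern, since 2 arrays give none. Alternatives were other percentiles, single arrays, single probe sets, quantile normalisation, removal of a loess trend (span 0.3), other level filters and a 2-fold threshold, and their use on the pathway lists was chosen after seeing the data.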

Additional observations from a re-analysis of the deposited data

How the results depend on the processing

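Limits. The count of 7 genes above the olfactory receptor limit depends on the percentile, being 10 at the 90th and 5 at the 99th, and was 7 without replicate 1 and 8 without replicate 2. The count of 5 above the stricter limit was 5 at its 90th percentile and on either array alone. At the 99th percentile of the olfactory receptor probe sets, 2 of the 11 further ligands passed, against 8, 3 of 6 membrane partners, against 6 (Flrt1, Flrt3 and L1cam drop out), and 1 of the other receptors and coreceptors, against 2 (Fgfr4 drops out). The count of genes differing 1.5-fold was 1 among genes above the stricter mean limit, where Fgf10 drops out by construction, and 1 at 2-fold, which rests on the value of Fgf10 below background on replicate 2 and became 0 with that value set to the limit (an alternative added after seeing the data). It was 2 without a filter, after quantile normalisation, after removal of the loess trend, and with values below the limit set to it. The 5 feedback inhibitors stayed at 5 under these settings and came to 0 at 2-fold, as did Etv4 and the core proteins Sdc1 and Gpc6. Normalisation moved single differences by between -0.0023 and 0.029, which turned the sign only of differences near 0 (Fgf7 0.00014 and Fgfr3 0.0020 after removal of the loess trend). Each of the 10 genes has 1 probe set, so the choice among probe sets changed none of them. Every difference rests on 1 array a side and has no replicate check.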
